A study of Mus musculus with 4 samples.

Results

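The endolysosomal cathepsins and legumain were followed in medullary thymic epithelial cells (mTECs) of wild-type and *Sirt6* cKO mice. The set held 10 genes, *Ctsb*, *Ctsc*, *Ctsd*, *Ctse*, *Ctsh*, *Ctsk*, *Ctsl*, *Ctss*, *Ctsz* and *Lgmn*, chosen by symbol as proteases that process antigen for MHC class II. All 10 were among the 23337 genes of the count table, and all 10 were among the 18547 genes with enough counts to be tested. Bulk RNA-seq was performed on mTECs sorted as CD45-EpCAM+UEA-1+Ly51- cells from the thymus of C57BL/6 mice at 4 weeks of age. WT comprised 2 libraries from mice without *Foxn1*-cre, and *Sirt6* cKO comprised 2 libraries from mice with *Foxn1*-cre and 2 floxed *Sirt6* alleles, which the labels give as *Sirt6*-/-. *Foxn1* drives the recombinase in thymic epithelial cells, so other cells that pass the sort keep their *Sirt6* alleles. The labels do not say how many mice went into each library, and p-values measure only the spread between these libraries.

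Cathepsins are proteases that work in the acidic compartments of the endocytic pathway. Cysteine cathepsins and the asparaginyl endopeptidase legumain cut internalized proteins and the invariant chain (*Cd74*), which occupies the groove of MHC class II molecules until a peptide replaces it. mTECs display peptides of self proteins on MHC class II to developing CD4+ T cells. Cathepsin L in cortical thymic epithelium and cathepsin S in dendritic cells and macrophages are known for the last steps of invariant chain removal.

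Total counts lay between 61102704 and 65907745 per library. *Sirt6*, the deleted gene, was counted 622 and 755 times in WT and 882 and 835 times in *Sirt6* cKO, and its count over the whole gene was thus no lower where the label says *Sirt6* cKO (log2 fold change 0.37, SE 0.32, edgeR adjusted p = 0.80). Every direction below rests on the labels. Values of single libraries are given in the order of their replicate numbers, WT before *Sirt6* cKO. The mTEC markers *Aire* (351 and 428 CPM in WT, 560 and 664 CPM in *Sirt6* cKO) and *Epcam* (758 and 771 CPM, 1003 and 1128 CPM) were present in each library and higher in both *Sirt6* cKO libraries (log2 fold change 0.65 and 0.48, edgeR unadjusted p = 0.0144 and 0.0182). Of the 14 mTEC markers tested, 5 were higher (35.7%) and 2 lower (14.3%) at an unadjusted p under 0.05 in edgeR. Among all genes tested these shares were 5.27% and 3.32%. The log2 fold changes of the 14 ran from -2.37 to 1.13, with 5 negative and 9 positive. The sums of the mTEC markers overlapped between the groups. The part of *Aire* and *Epcam* in the cathepsin values was not tested. *Ptprc*, which encodes the CD45 that the sort selects against, was present at 264 to 433 CPM. CPM are counts relative to library size after TMM scaling.

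Across the whole set, 2 of the 10 genes, *Lgmn* and *Ctsb*, were lower in *Sirt6* cKO at an unadjusted p under 0.05 in edgeR's quasi-likelihood test. Among all genes tested, 3.32% were lower at that threshold. None of the 10 was higher, against 5.27% of all genes tested, and 8.58% passed in either direction. By DESeq2 the same threshold also gave 2 lower and 0 higher, against 4.38% and 5.80% of all genes. After Benjamini-Hochberg adjustment over all genes, edgeR called 0 of the 10 (0.00539% of all genes tested), and DESeq2 called 1, *Lgmn* (1.83% of all genes with an adjusted p). The median log2 fold change of the 10 genes was -0.32, and that of all genes tested was -0.0047. Without WT 1 or without *Sirt6* cKO 1, 0 of the 10 genes were lower at the unadjusted threshold, while without WT 2 there were 4 and without *Sirt6* cKO 2 there was 1. Of all genes past that threshold, 61.4% were higher in *Sirt6* cKO, against 48.4% with upper quartile scaling and 46.2% with library size alone. The 2 groups of libraries did not overlap in CPM for 5 genes, of which *Lgmn*, *Ctsb* and *Ctsl* were lower and *Ctsh* and *Ctsz* were higher in *Sirt6* cKO. Among all genes tested, 20.3% did not overlap and were lower, and 21.6% did not overlap and were higher, 41.9% in all.

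**Figure D1:**
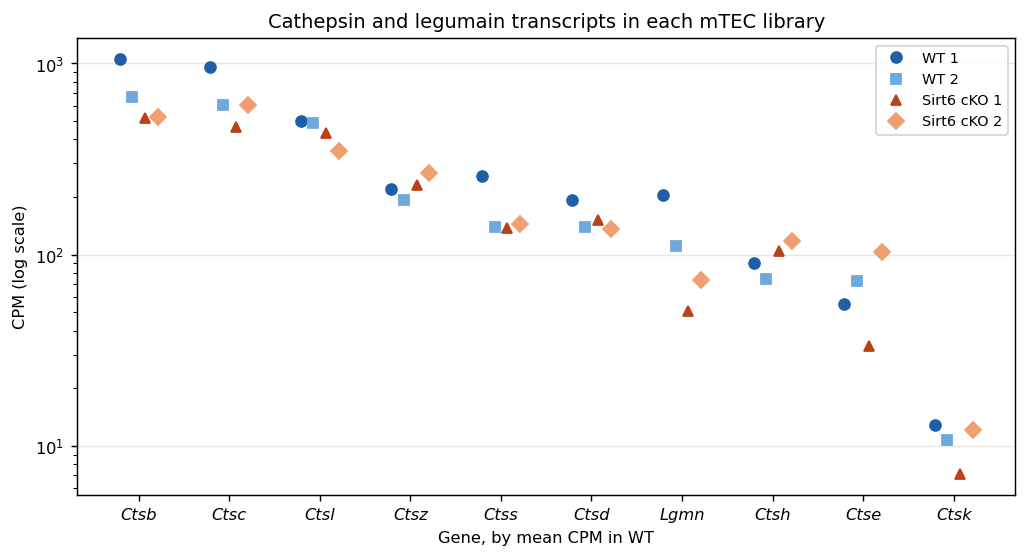
CPM on a log axis for the 10 genes in each of the 4 libraries, ordered by the mean in WT, with 1 symbol per library. *Lgmn* lay between 50.5 and 73.3 CPM in *Sirt6* cKO and between 111 and 204 CPM in WT, while WT 1 stood above the other libraries for *Ctsb*, *Ctsc*, *Ctss*, *Ctsd* and *Lgmn*.

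Legumain cuts after asparagine residues and also trims the proforms of other lysosomal proteases. *Lgmn* had 204 and 111 CPM in the WT libraries and 50.5 and 73.3 CPM in the *Sirt6* cKO libraries. Both *Sirt6* cKO libraries were below both WT libraries, and within each group the libraries differed as well, by 1.85-fold in WT and by 1.45-fold in *Sirt6* cKO. The fitted level was 2.55-fold lower in *Sirt6* cKO (log2 fold change -1.35, SE 0.37, 95% interval -2.27 to -0.43), the largest difference of the set. The unadjusted p was 0.0125 and the adjusted p was 0.541 in edgeR, and the adjusted p in DESeq2 was 0.0248. Without WT 1 the log2 fold change was -0.86 (edgeR unadjusted p = 0.0524), and without *Sirt6* cKO 1 it was -1.10 (edgeR unadjusted p = 0.0592). In bulk RNA, fewer cells of a type and less RNA per cell cannot be told apart.

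*Lgmn* lies at chr12:102394084-102439813 on the minus strand of GRCm38. RefSeq gives it 2 starts, and the sequences before both are shown because *Lgmn* had the largest difference of the set. Of the 250 bases before the first start, the 165 that precede the first annotated exon are printed (chr12:102439814-102439978, minus strand, GRCm38.p6). The window before the second start is printed whole (chr12:102439093-102439342, minus strand). Capitals mark CACGTG, the E-box core that TFEB and TFE3, regulators of lysosomal genes, are known to bind, searched for on both strands.
Lgmn start 1: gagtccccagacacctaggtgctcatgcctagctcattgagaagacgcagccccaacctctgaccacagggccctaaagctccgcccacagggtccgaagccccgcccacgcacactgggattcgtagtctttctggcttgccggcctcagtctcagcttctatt
Lgmn start 2: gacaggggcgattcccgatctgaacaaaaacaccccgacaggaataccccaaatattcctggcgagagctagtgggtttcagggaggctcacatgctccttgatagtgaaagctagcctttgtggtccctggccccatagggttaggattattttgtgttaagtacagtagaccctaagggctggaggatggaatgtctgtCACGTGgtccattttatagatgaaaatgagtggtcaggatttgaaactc
The match lies 49 to 44 bases upstream of the second start. That window lies inside the annotated gene and outside its annotated exons. CACGTG was found in 6.02% of all 32851 windows of that length, and the windows of *Ctsd* (98 to 93 and 245 to 240 bases upstream) and *Ctsl* (236 to 231 bases upstream) also held it. In the *Ctsd* window only the first 39 bases precede an annotated exon, and its match at 98 to 93 bases lies in exon sequence. In the *Ctsl* window the first 17 bases do, and its match reaches into an exon. RefSeq windows were matched for 7 of the 10 genes, and *Ctsb*, *Ctse* and *Ctsh* had no entry. A match describes these letters and is not evidence of binding in mTECs.

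Cathepsin L and cathepsin S are the endopeptidases best known for the invariant chain. In the WT libraries *Ctsl* had 499 and 490 CPM, against 430 and 347 CPM in *Sirt6* cKO. The WT libraries were nearly level with each other and both were above the *Sirt6* cKO libraries. The log2 fold change of *Ctsl* was -0.35 (SE 0.17, edgeR unadjusted p = 0.0947), and it passed the unadjusted threshold when the libraries were scaled by upper quartile (edgeR unadjusted p = 0.0463) or by library size alone (edgeR unadjusted p = 0.0467). *Ctsl* at chr13:64359337-64370890 (minus strand) shares 1742 exon bases with *Gm47123* on the opposite strand and 395 with *Gm49230* on its own. Whether the counting used strand is not given in the sources used here. Whether *Gm47123* and *Gm49230* were counted was not checked.

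*Ctss* had 257 and 139 CPM in the WT libraries and 138 and 145 CPM in the *Sirt6* cKO libraries. Only WT 1 stood apart, and the groups overlapped. The log2 fold change of *Ctss* was -0.49 (SE 0.31, edgeR unadjusted p = 0.175). It was -0.0073 without WT 1 and -0.86 without WT 2 (edgeR unadjusted p = 0.0124). *Ctss* at chr3:95526786-95556403 is the neighbour of *Ctsk* (chr3:95499256-95509362) on the plus strand. The 250 bases before its start (chr3:95526536-95526785, plus strand) are shown for the core of the interferon-stimulated response element, GAAA followed after any 2 bases by GAAA, in capitals, which lies 21 to 12 bases upstream and was found on either strand in 2.98% of all windows.
Ctss: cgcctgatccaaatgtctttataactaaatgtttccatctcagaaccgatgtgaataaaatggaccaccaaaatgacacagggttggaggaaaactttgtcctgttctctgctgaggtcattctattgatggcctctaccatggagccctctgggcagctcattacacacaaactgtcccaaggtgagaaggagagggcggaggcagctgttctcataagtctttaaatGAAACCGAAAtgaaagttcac

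Cathepsin B is an abundant cysteine protease that acts as an endopeptidase and as a carboxypeptidase. *Ctsb* had 1053 and 670 CPM in the WT libraries and 520 and 526 CPM in the *Sirt6* cKO libraries. The *Sirt6* cKO libraries were level with each other and below both WT libraries, which differed 1.57-fold between themselves. The fitted level of *Ctsb* was 1.65-fold lower in *Sirt6* cKO (log2 fold change -0.72, SE 0.24, 95% interval -1.33 to -0.11). Its unadjusted p was 0.028 and its adjusted p 0.548 in edgeR, and the adjusted p in DESeq2 was 0.194. The call ended when WT 1 was left out (-0.38, edgeR unadjusted p = 0.101), as it did without *Sirt6* cKO 1 (-0.71, edgeR unadjusted p = 0.0809) and without *Sirt6* cKO 2 (-0.74, edgeR unadjusted p = 0.0582). *Ctsb* (chr14:63122462-63145923, plus strand) shares 774 exon bases with *Fdft1* on the opposite strand. *Fdft1* had 2305, 2070, 2164 and 2507 counts in the same order of libraries (log2 fold change 0.15), against 31373 to 68919 counts for *Ctsb*.

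**Figure D2:**
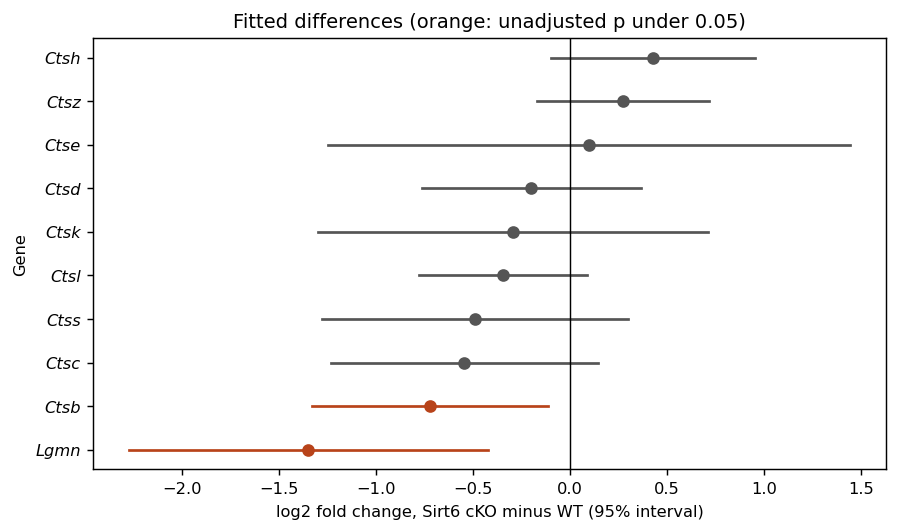
Fitted log2 fold change of each gene, *Sirt6* cKO minus WT, with a 95% interval derived from the edgeR test, 2 libraries per group. The intervals of *Lgmn* and *Ctsb* lay below 0 and the other 8 included 0.

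Cathepsin C removes dipeptides from amino termini and activates the serine proteases of cytotoxic and myeloid granules. *Ctsc* had 961 and 603 CPM in the WT libraries and 464 and 607 CPM in the *Sirt6* cKO libraries. WT 1 was high, and WT 2 and *Sirt6* cKO 2 were level, so the groups overlapped. The log2 fold change of *Ctsc* was -0.55 (SE 0.27, edgeR unadjusted p = 0.0982). It was -0.19 without WT 1 and -0.84 without WT 2 (edgeR unadjusted p = 0.0165). *Ctsc* lies at chr7:88278085-88310888 on the plus strand. The sequence before its start (chr7:88277835-88278084, plus strand) is shown for GAGGAAGT, a motif of the Ets factors PU.1 and SPIB, in capitals as its reverse complement. It lies 151 to 144 bases upstream and was found on either strand in 2.44% of all windows.
Ctsc: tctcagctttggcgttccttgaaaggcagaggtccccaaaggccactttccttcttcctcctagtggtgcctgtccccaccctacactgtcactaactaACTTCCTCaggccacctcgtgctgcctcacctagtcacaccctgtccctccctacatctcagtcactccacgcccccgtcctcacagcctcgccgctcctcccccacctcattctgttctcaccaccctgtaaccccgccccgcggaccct

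Cathepsin H is an aminopeptidase, and cathepsin Z (also called X) is a carboxypeptidase. *Ctsh* had 90.6 and 74.8 CPM in the WT libraries and 105 and 117 CPM in the *Sirt6* cKO libraries. Both *Sirt6* cKO libraries were above both WT libraries, with a log2 fold change of 0.43 (SE 0.21, 95% interval -0.10 to 0.95, edgeR unadjusted p = 0.0925). *Ctsz* had 219 and 193 CPM in the WT libraries and 232 and 266 CPM in the *Sirt6* cKO libraries. Its libraries had the same order, and the distance between WT 1 and *Sirt6* cKO 1 was smaller than that within either group. The log2 fold change of *Ctsz* was 0.27 (SE 0.18, 95% interval -0.17 to 0.72, edgeR unadjusted p = 0.177). *Ctsh* and *Ctsz* lie at chr9:90054152-90076089 (plus strand) and chr2:174427493-174439039 (minus strand).

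Cathepsin K, the collagenase of osteoclasts, was the least abundant of the set. *Ctsk* had 12.9 and 10.7 CPM in the WT libraries and 7.09 and 12.1 CPM in the *Sirt6* cKO libraries. The first *Sirt6* cKO library alone was low, and the log2 fold change was -0.29 (SE 0.40, edgeR unadjusted p = 0.492). Cathepsin D and cathepsin E are aspartic proteases, cathepsin D in lysosomes of most cells and cathepsin E in endosomes of epithelial and immune cells. *Ctsd* had 193 and 139 CPM in the WT libraries and 152 and 137 CPM in the *Sirt6* cKO libraries. WT 1 was again the highest and the groups overlapped, with a log2 fold change of -0.20 (SE 0.22, edgeR unadjusted p = 0.409). *Ctsd* (chr7:142375911-142388038, minus strand) shares 808 exon bases with *Gm49369* on its own strand. Counting could split its reads if both genes were counted, and whether *Gm49369* was counted was not checked. *Ctse* had 54.9 and 72.4 CPM in the WT libraries and 33.5 and 103 CPM in the *Sirt6* cKO libraries. The lowest and the highest value were both in *Sirt6* cKO, where the libraries differed 3.07-fold, and the log2 fold change of 0.10 (SE 0.53, edgeR unadjusted p = 0.862) had an interval from -1.25 to 1.44. *Ctse* lies at chr1:131638306-131675505 on the plus strand.

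Levels of different genes were compared per length, in TPM. In WT the mean TPM was 693 for *Ctsc*, 552 for *Ctsl*, 398 for *Ctsb*, 325 for *Ctsz*, 320 for *Ctss*, 186 for *Ctsd*, 184 for *Lgmn*, 112 for *Ctsh*, 66.1 for *Ctse* and 17.4 for *Ctsk*. The WT ranges of *Ctsc* and *Ctsl*, of *Ctsb* and *Ctsz*, of *Ctsz* and *Ctss*, and of *Ctsd* and *Lgmn* overlapped. Within each WT library *Ctsb* was above *Ctsz* (481 against 341 TPM in WT 1, 315 against 309 TPM in WT 2). The order of each of the other pairs differed between WT 1 and WT 2. *Lgmn* ranked 6 and 7 in the WT libraries, and 8 and 9 in those of *Sirt6* cKO. *Ctsz* ranked 5 and 4 in WT, and 3 and 2 in *Sirt6* cKO. *Ctsh* held rank 8 in both WT libraries, and ranks 7 and 6 in *Sirt6* cKO. *Ctsk* was last in each library.

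The 10 genes summed to 3272 and 2438 TPM in the WT libraries and 2122 and 2341 TPM in the *Sirt6* cKO libraries. WT 1 held the largest pool, and WT 2 was 96.3 TPM above the higher *Sirt6* cKO library. The mean was 2855 ± 590 TPM (SD, n = 2) in WT and 2232 ± 155 TPM (SD, n = 2) in *Sirt6* cKO (exact two-sided permutation p = 0.333, the smallest that 2 libraries against 2 allow). The means differed by -624 TPM, by -206 TPM without WT 1 and by -1041 TPM without WT 2. *Lgmn* made up 7.23% and 5.41% of the pool in WT and 2.77% and 3.66% in *Sirt6* cKO. *Ctsz* made up 10.4% and 12.7% in WT and 17.1% and 17.9% in *Sirt6* cKO.

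**Figure D3:**
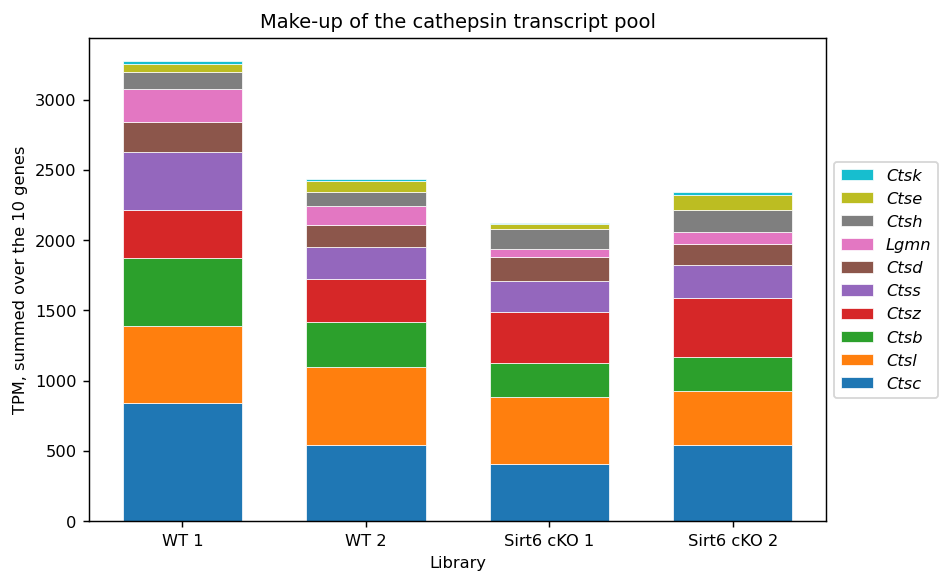
TPM of the 10 genes stacked for each library, with 1 colour per gene. The pool reached 3272 TPM in WT 1 and lay between 2122 and 2438 TPM in the other 3 libraries.

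Ratios within a library do not depend on the scaling between libraries, and 4 were tested over the libraries by exact two-sided permutation, where no p below 0.333 is possible. The log2 ratio of *Lgmn* to *Ctsl* was -1.21 and -2.07 in the WT libraries and -3.02 and -2.17 in the *Sirt6* cKO libraries. The groups did not overlap but WT 2 and *Sirt6* cKO 2 were close, and the means differed by -0.95 (exact permutation p = 0.333). This difference was -0.52 without WT 1 and -0.53 without *Sirt6* cKO 1. The log2 ratio of *Ctss* to *Ctsl* was -0.42, -1.27, -1.10 and -0.72 in the same order of libraries. Here both *Sirt6* cKO libraries lay between the WT libraries, and the means differed by -0.07 (exact permutation p = 1). For *Ctsb* to *Ctsl* the means differed by -0.33 and for *Ctsd* to *Ctsl* by 0.17, both with overlapping groups (exact permutation p = 0.667 for each). The *Ctsb* to *Ctsl* difference was -0.013 without WT 1, -0.64 without WT 2, -0.16 without *Sirt6* cKO 1 and -0.49 without *Sirt6* cKO 2.

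The largest deviations from the mean of the 4 libraries in log2 CPM were those of *Lgmn*, at 1.10 in WT 1 and -0.92 in *Sirt6* cKO 1. *Ctsb*, *Ctsc* and *Ctss* were 0.67, 0.60 and 0.65 above their means in WT 1. The summed markers of macrophages, cells that express many cathepsins, were also highest in WT 1 and lower in both *Sirt6* cKO libraries. They summed to 6189 and 3626 CPM in the WT libraries and 2576 and 2635 CPM in the *Sirt6* cKO libraries, and *Lyz2* made up most of each sum. Of the 14 macrophage markers tested, 7 were lower (50%) and 0 higher in *Sirt6* cKO at an unadjusted p under 0.05 in edgeR. Among all genes tested these shares were 3.32% and 5.27%. The log2 fold change was negative for 13 of the markers and positive for 1, *Ptprc* (0.27). The median of the markers was -0.79, and none was at 0 in any library. Among them *C1qa*, a complement subunit, had 408, 158, 105 and 101 CPM, and *Lyz2*, lysozyme, had 4647, 2815, 1778 and 1906 CPM. Without WT 1 the median of the 14 was -0.60. The part of these markers in the values of *Lgmn*, *Ctsb*, *Ctsc* and *Ctss* was not tested.

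Tuft cell markers summed to 859 and 962 CPM in WT and to 622 and 603 CPM in *Sirt6* cKO. Of the 12, 8 were lower (66.7%) and 1 was higher (8.33%) at the same threshold. Among all genes tested, 3.32% were lower and 5.27% higher at that threshold. The sums of the other lists overlapped between the groups. Dendritic cell markers summed to 319 to 425 CPM with 0 of 12 called. Thymocyte markers summed to 837 to 1655 CPM with 1 of 13 lower (7.69%). B cell markers summed to 347 to 621 CPM with 1 of 9 higher (11.1%). Markers of fibroblasts and endothelial cells summed to 714 to 797 CPM with 1 of 12 lower (8.33%). The cTEC markers summed to 1197 to 1607 CPM with 2 of 10 higher (20%). For mTEC markers the sums were 7524 to 9943 CPM, with 2 of 14 lower (14.3%) and 5 higher (35.7%). The part of the tuft cell markers in the cathepsin values was not tested either.

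**Figure D4:**
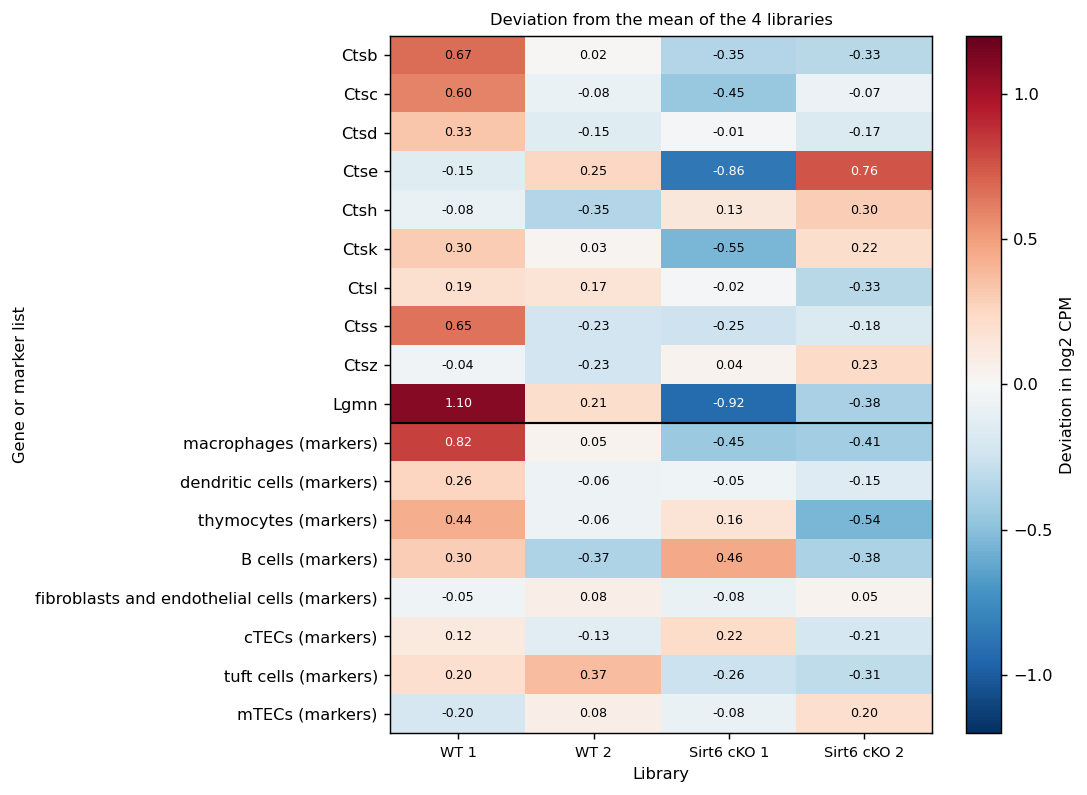
Deviation of each library from the mean of the 4 libraries, in log2 CPM, for the 10 genes (above the line) and for the summed markers of 8 cell types (below it). Red is above and blue is below the mean. WT 1 was above the mean by 1.10 for *Lgmn* and by 0.82 for the macrophage markers, whose sum was mostly *Lyz2* in each library.

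The remaining endolysosomal genes were described through 6 lists with 160 genes, of which 146 were tested. At an unadjusted p under 0.05 in edgeR, 9 were lower and 4 were higher in *Sirt6* cKO, against 3.32% lower and 5.27% higher among all genes tested. The lists' shares were 6.16% and 2.74%. After adjustment over all genes edgeR called 0 and DESeq2 called 2, *Cd68* (adjusted p = 0.0282) and *Atp6v0d2* (adjusted p = 0.0292). Of all genes with an adjusted p, edgeR called 0.00539% and DESeq2 called 1.83%. The median log2 fold change was -0.05. The genes called in these lists changed with the library left out. Of 14 other endolysosomal proteases tested, 2 were lower (14.3%) and 0 higher, with a median of -0.30. Over the alternatives that median ran from -0.62 (without *Sirt6* cKO 2) to 0.012 (without WT 1). Some of these proteases had 0 counts in a library. *Ctsa*, the carboxypeptidase that protects beta-galactosidase and neuraminidase, had 88.2, 72.3, 46.3 and 51.2 CPM (log2 fold change -0.72, edgeR unadjusted p = 0.022). *Ctsw*, a cathepsin of cytotoxic lymphocytes, had 19.8, 37.5, 14.4 and 11.0 CPM (log2 fold change -1.17, edgeR unadjusted p = 0.0321). For both genes the WT libraries lay above the *Sirt6* cKO libraries.

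Of 21 cathepsin inhibitors tested, 1 was lower (4.76%, against 3.32% of all genes tested) and 0 higher (against 5.27%), with a median of -0.34. Over the alternatives that median ran from -0.43 (library size alone) to -0.064 (without WT 2), and the list also held genes with few counts. *Serpinb13*, a serpin that inhibits cathepsins K and L, had 3.35, 11.8, 0.464 and 1.65 CPM (log2 fold change -2.84, edgeR unadjusted p = 0.028), a low level in each library. In the list of delivery to lysosomes, 1 of 30 was lower (3.33%) and 2 were higher (6.67%), shares near those of all genes tested (3.32% and 5.27%), with a median of 0.09. *Tfe3*, a transcription factor of lysosomal genes, had 53.4, 58.8, 118 and 89.8 CPM (log2 fold change 0.89, edgeR unadjusted p = 0.0105). *Vps18*, a subunit of the tethering complexes for late endosomes, had a log2 fold change of 0.86, and *Vps29*, a subunit of retromer, one of -0.47.

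Among 33 other lysosomal hydrolases and activators, 2 were lower (6.06%, against 3.32% of all genes tested) and 1 was higher (3.03%, against 5.27%), with a median of -0.05. *Gm2a*, an activator protein for the breakdown of gangliosides, had 378, 400, 277 and 265 CPM (log2 fold change -0.52, edgeR unadjusted p = 0.0164), and the WT libraries lay above the *Sirt6* cKO libraries. *Arsa*, arylsulfatase A, had a log2 fold change of 0.99. Of 34 genes of the lysosomal membrane and its acidification, 3 were lower (8.82%) and 1 higher (2.94%), with a median of -0.01. *Atp6v0d2*, a proton pump subunit known from osteoclasts and macrophages, had 36.6, 22.8, 11.6 and 5.52 CPM (log2 fold change -1.79, edgeR unadjusted p = 0.0123). *Cd68*, which also stands in the macrophage list, had a log2 fold change of -1.25, *Hgsnat*, an acetyltransferase, one of -0.94, and *Atp6v0a1*, another proton pump subunit, one of 0.74.

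Of 14 partners of the cathepsins in MHC class II loading, 0 were lower and 0 higher at an unadjusted p under 0.05 in edgeR. Among all genes tested these shares were 3.32% and 5.27%. DESeq2 gave 0 lower and 1 higher (7.14%, against 5.80% of all genes). The median log2 fold change of the partners was -0.03 in edgeR. The largest absolute log2 fold change among them was that of *March1*, a ubiquitin ligase of MHC class II molecules, at -1.18 (edgeR unadjusted p = 0.156), with 30.7 CPM in WT 1 and 6.96 to 9.57 CPM in the other libraries. *Cd74*, chosen after its values were seen because its product is cut by cathepsins S and L, had 10101, 12378, 12169 and 9462 CPM, and the groups overlapped (log2 fold change -0.06, SE 0.18).

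**Figure D5:**
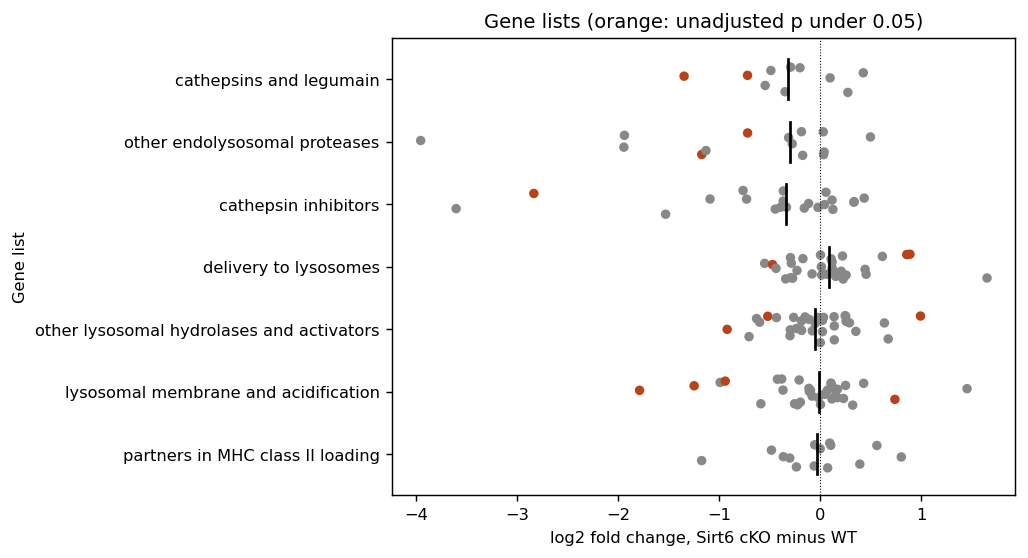
Fitted log2 fold change, *Sirt6* cKO minus WT, for each tested gene of the cathepsin set and of the 6 endolysosomal lists. Each point is 1 gene and each bar is the median of its list. Orange marks an unadjusted p under 0.05. The medians were -0.32 for the cathepsin set, -0.30 for the other proteases, -0.34 for the inhibitors and between -0.05 and 0.09 for the remaining 4 lists. The protease and inhibitor lists held genes with few counts, and their medians moved when a library was left out.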

How the data were processed

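mTECs were sorted from 4-week-old mice and 4 libraries were sequenced, 2 per group. Per the paper's methods and the submitters' processing notes, reads were trimmed, aligned to mm10 with HISAT2 2.1.0 and quantified with StringTie 1.3.3. The authors deposited whole-number read counts per gene without normalization, and TPM per library, in which a last line with the column total was left out. No columns were unused (0). The gene annotation of the authors is not given in the sources used here.

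Counts were tested with edgeR 4.0.16 (R 4.3.3) by glmQLFit and glmQLFTest after TMM scaling and filterByExpr (minimum count 10, minimum total 15), on all genes with Benjamini-Hochberg adjustment at 0.05. DESeq2 1.42.0, limma 3.58.1 on log2(TPM + 1) and log2(TPM + 0.1), other filters and scalings, a replicate block and the omission of each library were alternatives. The edgeR script was run on data simulated with a smaller spread between libraries than these data have. That run therefore does not show how often its calls are right at the spread of these data. The 4 libraries differed from each other by more than sampling noise (chi-square per gene 154 or more). SE was the absolute log2 fold change divided by the square root of edgeR's F statistic. Intervals used a t quantile at the test's total degrees of freedom, part of which is borrowed from all genes. They cover the spread of 2 libraries per group.

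All 10 genes are named, with those of each pathway list past the unadjusted threshold, or otherwise the one with the largest absolute change, and marker lists are given by their sums and up to 3 members. A gene that this rule names is not reported here. The genes, lists and motifs were chosen with earlier results of these data known, including some rows of a supplementary table of the study. Positions are from GENCODE M21 on GRCm38, with exon overlaps counted in bases, and promoter sequences are from RefSeq GRCm38.p6. Python 3.11.15 and matplotlib 3.10.9 drew the figures.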

Additional observations from a re-analysis of the deposited data

How the results depend on the processing

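*Lgmn* and *Ctsb* kept their lower level in *Sirt6* cKO under all 12 alternatives, but not their side of the threshold. DESeq2 called 1 of the 10 genes, *Lgmn*, at an adjusted p of 0.05, where edgeR called 0. The adjusted p of *Lgmn* lay between 0.0248 and 0.9996 over all alternatives. Leaving out 1 library at a time gave 0 to 4 of the 10 genes lower (0 without WT 1 or without *Sirt6* cKO 1, 4 without WT 2, 1 without *Sirt6* cKO 2) and a median of -0.64 to -0.14. For the 6 other lists it gave 2 to 11 genes lower and 1 to 5 higher. Upper quartile scaling and library size alone gave 3 lower, with *Ctsl* added. *Ctse* reversed with the replicate block (-0.10), in limma (-0.11 with either pseudocount), without WT 1 and without *Sirt6* cKO 2 (lowest -0.95, highest 0.69 over the omissions). *Ctsd* was 0.033 without WT 1 (lowest -0.42) and *Ctsk* 0.043 without *Sirt6* cKO 1 (lowest -0.75). The difference in log2 ratio ran from -0.49 to 0.36 for *Ctss* to *Ctsl*, from -1.38 to -0.52 for *Lgmn* to *Ctsl*, from -0.64 to -0.013 for *Ctsb* to *Ctsl* and from -0.054 to 0.40 for *Ctsd* to *Ctsl*. The cause was not tested. A library left alone in its group was assumed to vary like the other group. WT and *Sirt6* cKO libraries shared only a replicate number (correlation of their within-group differences -0.05). With the replicate block 2 of the 10 genes were lower (*Lgmn* -1.31, *Ctsb* -0.68) and the lists gave 7 lower. Of all genes tested, 2.42% were lower in that fit. The 10 genes had 428 to 68919 counts per gene and library. Whether depth or the spread between 2 libraries per group limits the comparison was not tested.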
